A study of Mus musculus with 24 samples.

Results

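The genes described here are 9 markers of FGF and ERK signalling, chosen by symbol from the 24594 genes of the count table: Fgf4, Dusp6, Spry2, Spry4, Etv4, Etv5, Egr1, Fos and Ier3. All 9 were among the 15682 genes that passed the filter on low counts. Mouse embryonic stem cells (mESCs) make their own FGF4, which binds FGF receptors at the cell surface and activates the kinase ERK through RAS, RAF and MEK. ERK signalling moves mESCs away from the naive state and, in the early embryo, favours primitive endoderm over epiblast. Activated ERK switches on early response genes such as Egr1 and Fos within minutes, and it raises the mRNA of its own inhibitors, among them the ERK phosphatase Dusp6 and the Sprouty genes. The levels of such mRNAs are often used as a readout of the pathway, although each of these genes has other inputs as well.

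RNA was measured in 24 libraries of 129S6/SvEvTac mESCs grown on gelatin in medium with serum and LIF, a cytokine that keeps them pluripotent, with no other treatment. The wild type (WT) was sequenced again in each of 5 batches: 2 WT libraries each in batches A, B, C and E and 3 in batch D, 11 in all. The 6 deletion lines, labelled as knock-outs, were each targeted in the gene of a subunit that defines an ISWI chromatin remodeller: Rsf1Δ and WstfΔ (batch A, 2 libraries each, compared with the same WT libraries), Tip5Δ (batch B, 2), BptfΔ (batch C, 2), Cecr2Δ (batch D, 3) and Acf1Δ (batch E, 2). Each line is 1 clone made with CRISPR-Cas9 (Acf1Δ by targeting the gene a second time), so that a property of the clone and an effect of the deletion cannot be told apart. The libraries held between 13.4 and 36.7 M counts (M, mega), and 3 counts corresponded to 0.0837 to 0.22 normalised CPM (counts scaled to a common library size). The mRNA of the targeted gene was lower in Rsf1Δ (Rsf1), WstfΔ (Baz1b), Acf1Δ (Baz1a) and BptfΔ, with log2 fold changes from -1.72 to -2.40. Baz2a, the gene of TIP5, had a log2 fold change of -0.26 in Tip5Δ (edgeR adjusted p = 0.0533), and Cecr2 mRNA was higher in the Cecr2Δ-labelled libraries (log2 fold change 0.37), so that the counts do not check these labels. Per the study's methods the clones were checked by western blot and by sequencing of the targeted DNA, which the counts cannot show. All libraries expressed the 9 pluripotency markers, with a summed level of 3773 to 5870 normalised CPM. Batch C stood apart: RNAs without a poly(A) tail summed to between 3932 and 5515 normalised CPM in its 4 libraries and to at most 5.72 in all others. The labels give poly(A) RNA for these libraries too, and this label is in doubt for batch C. A difference in library type and the batch cannot be told apart, so that levels of batch C, those of Egr1 and Spry2 included, may not be comparable with the levels of other batches, and BptfΔ was compared only with the WT of batch C.

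In the WT cells the feedback inhibitor Spry2, the ligand Fgf4 and the ETS factors Etv5 and Etv4 had the highest mRNA levels per length of the 9 genes, and the early response genes the lowest. On the scale of normalised CPM per kilobase, the means over the 11 WT libraries were 104 for Spry2, 74.4 for Fgf4, 63.9 for Etv5 and 51.9 for Etv4, then 30.0 for Spry4 and 28.8 for Dusp6. Ier3 was at 6.10, Egr1 at 4.65 and Fos at 1.57. Between neighbours in this order, the ranges over the WT libraries did not overlap for Etv4 and Spry4 or for Dusp6 and Ier3, and they overlapped for all other neighbours. Fgf4 was above Etv5 in each of the 11 libraries although their ranges overlapped, and Spry4 was above Dusp6 in only 7 of 11. Reads per length compare genes only as well as the annotated width describes the transcripts made.

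The same WT cells did not have the same levels in each batch. All 9 genes differed among the 5 WT batches (edgeR quasi-likelihood F test, largest adjusted p = 0.00108 for Etv5), as did 73.1% of all genes tested. Egr1 differed most among the 9. Its WT levels were 27.3 and 25.4 normalised CPM in batch A, 20.4 and 20.8 in batch B, 23.9, 28.3 and 26.0 in batch D, and 22.3 and 22.1 in batch E. Batch C lay apart from all of these, at 6.88 and 5.95, a 4.11-fold difference between the highest and the lowest batch mean. For the other 8 genes this ratio was between 1.18 (Etv5) and 1.72 (Fos). Etv4 was highest in batch D (202 ± 27.9, SD, n = 3) and lowest in batch A (131 ± 3.05, SD, n = 2). Without the 4 libraries of batch C, 7 of the 9 still differed among the WT batches, beside 59.4% of all genes. Each line was therefore compared with the WT libraries of its own batch.

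**Figure D1:**
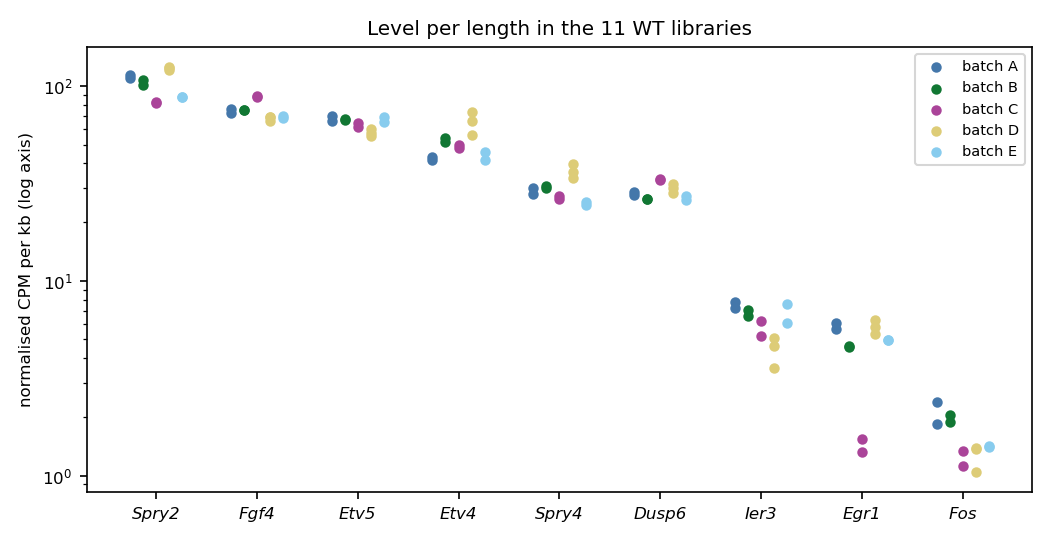
mRNA level of the 9 genes in the 11 WT libraries, as normalised CPM per kilobase on a log axis, with 1 point per library coloured by batch. Egr1 is the gene whose batch C libraries lie furthest from the other WT libraries, and Spry2 has the highest mean.

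Across the 6 lines, 15 of the 54 comparisons of a gene with its WT rose and 16 fell at an adjusted p under 0.01, 31 in all, against 26% of all comparisons of tested genes. No gene of the 9 moved in 1 direction in every line, and the set as a whole split in each line. Only 3 comparisons passed a 2-fold change as well: Egr1 and Spry2 in BptfΔ and Egr1 in WstfΔ. Among all genes, 6.75% of comparisons did so. Of the 31 changes, 18 left the mean of the line within the range of the 11 WT libraries, as 48.3% of the changes of all genes did. The study's methods describe the libraries of a group as independent replicates. All libraries of a line come from the same clone. The p-values rest on the spread between replicates, pooled over all groups in 1 model, and they do not measure a spread between clones.

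**Figure D2:**
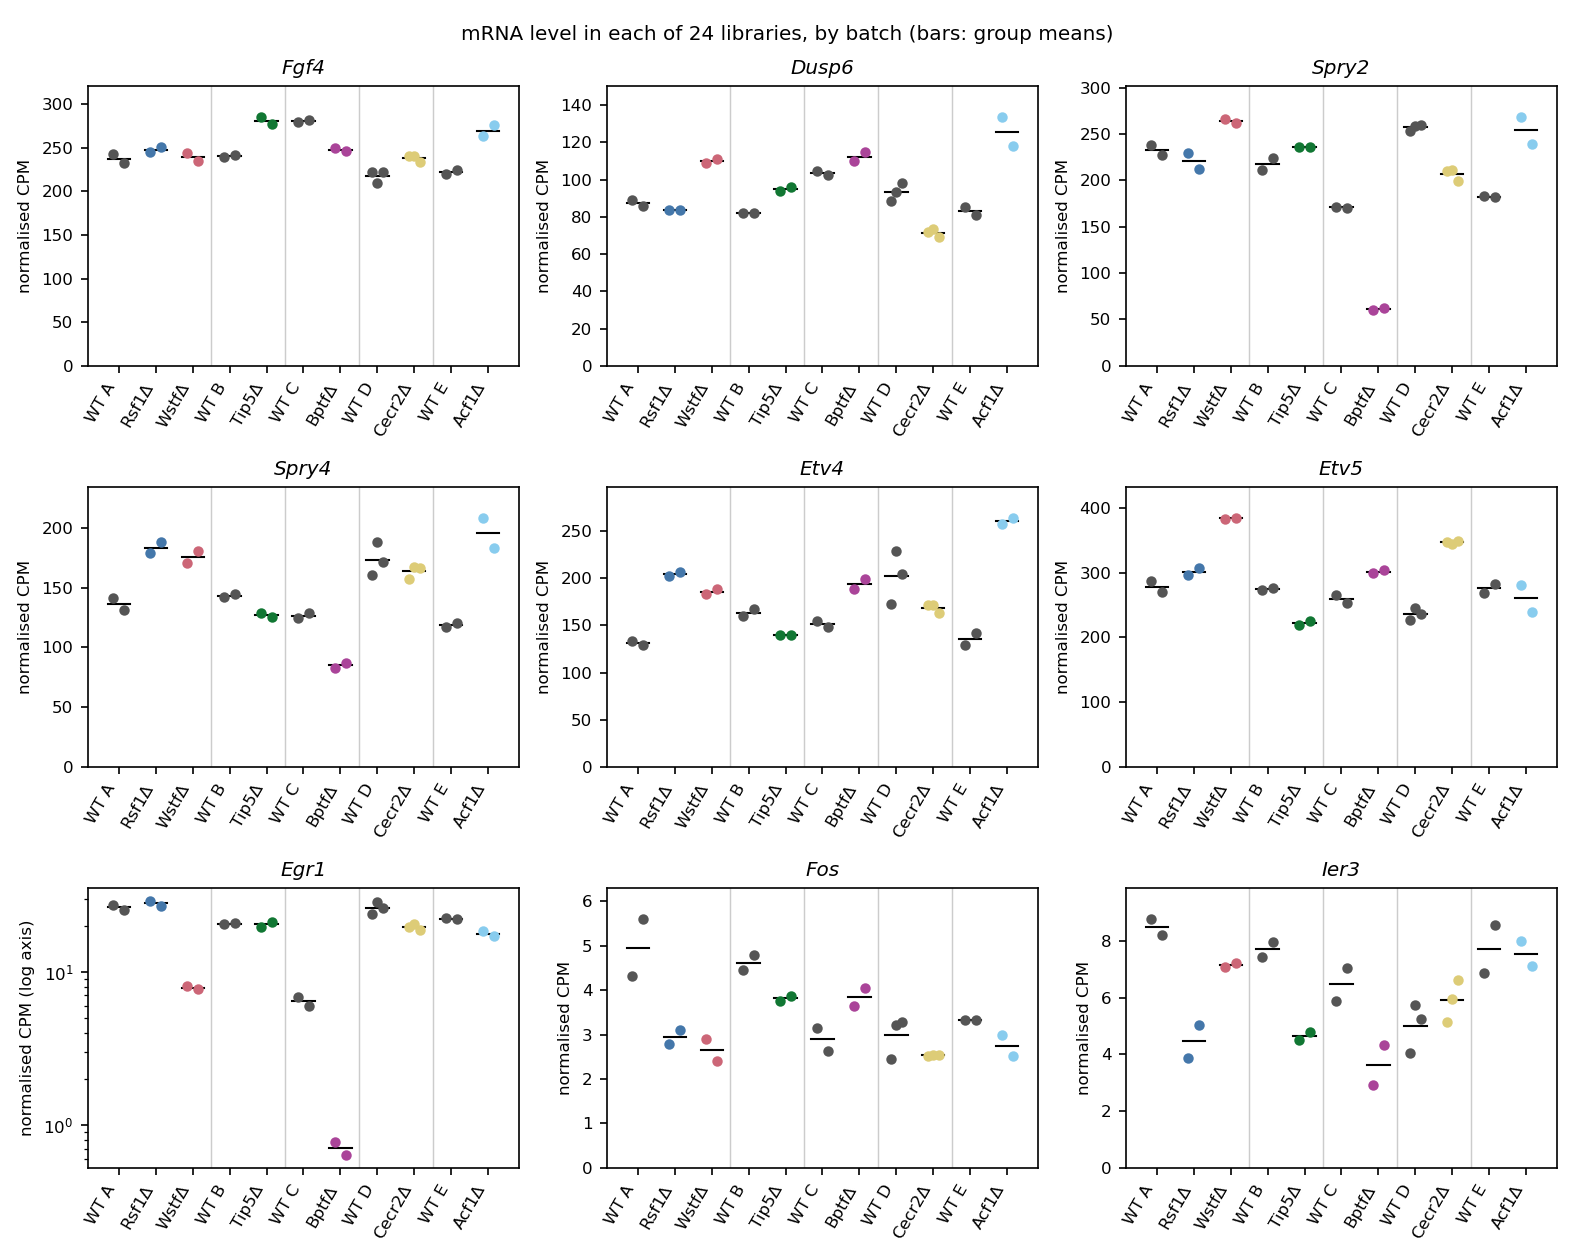
mRNA level of each of the 9 genes in the 24 libraries, as normalised CPM on axes that start at 0 (a log axis for Egr1), with 1 point per library, a bar for each group mean and the lines beside the WT libraries of their batch. Egr1 in BptfΔ, at 0.778 and 0.636, is the lowest group of its panel, and Spry2 is lower in BptfΔ than in any other library.

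By line, BptfΔ had the largest falls of Egr1, Spry2 and Spry4. In BptfΔ 2 of the 9 genes rose and 5 fell, against 21.4% and 20.2% of all genes, with a median log2 fold change of -0.18 for the 9 and 0.01 for all genes tested. These counts became 0 and 3 without WT replicate 2 of batch C, 1 and 3 without BptfΔ replicate 1 and 0 and 4 without BptfΔ replicate 2. In Acf1Δ 5 rose and 1 fell (15.1% and 16.7% of all genes), with a median of 0.28 against -0.03. In WstfΔ 4 rose and 2 fell (16.4% and 18.3%), with a median of 0.18 against -0.03. Rsf1Δ, which shares its WT libraries with WstfΔ, had 2 that rose and 2 that fell (7.45% and 13.1%), with a median of 0.06 against 0.00, and 2 and 0 without Rsf1Δ replicate 1. In the Cecr2Δ-labelled libraries 1 rose and 4 fell (9.52% and 8.83%), with a median of -0.23 against 0.00. Tip5Δ had 1 that rose and 2 that fell (2.84% and 6.23%), with a median of -0.18 against -0.01. None was called in Tip5Δ (0) without WT replicate 2 of batch B or Tip5Δ replicate 1, and 1 fell without either of the other 2 libraries. Of the 135 differences between the changes of a gene in a pair of lines, 75 passed the same test, against 25.2% of those of all genes. Against all 11 WT libraries, with no batch term, the number of the 9 genes called was 0 in Rsf1Δ and Tip5Δ, 1 in WstfΔ, 2 each in Acf1Δ and the Cecr2Δ-labelled libraries and 5 in BptfΔ. The shares of all genes called in that fit were 1.61% in Rsf1Δ, 1.76% in Tip5Δ, 7.65% in WstfΔ, 2.22% in Acf1Δ, 7.6% in the Cecr2Δ-labelled libraries and 31.3% in BptfΔ. The number of pairs of lines, out of 15, that differed was 12 each for Spry2 and Spry4, 10 each for Etv4, Etv5 and Egr1, 9 for Dusp6, 5 each for Fgf4 and Ier3 and 2 for Fos.

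**Figure D3:**
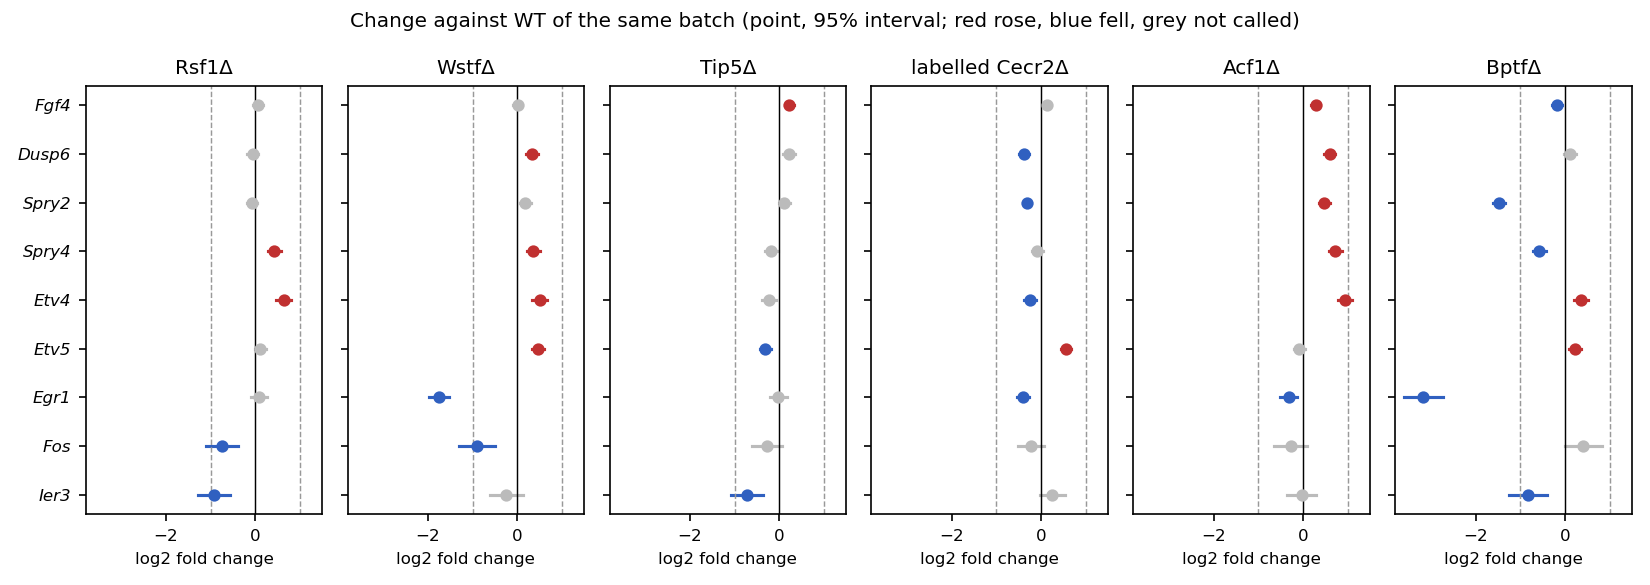
Log2 fold change of each of the 9 genes in each line against the WT libraries of the same batch, with bars for the 95% interval, in red where the gene rose and in blue where it fell at an adjusted p under 0.01, in grey otherwise. Egr1 (-3.18) and Spry2 (-1.48) in BptfΔ and Egr1 in WstfΔ (-1.75) lie beyond a log2 fold change of -1, and Etv4 in Acf1Δ (0.94) is the largest increase.

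The ligand changed little. Fgf4 encodes the FGF that mESCs secrete, and lies on chromosome 7 (144861386 to 144865245 in mm10, gene ID 14175). Its level over all 24 libraries stayed between 210.0 and 285 normalised CPM. Fgf4 was at 240 and 241 in the WT libraries of batch B and at 285 and 277 in Tip5Δ. In batch E it was at 220 and 225 in WT and at 263 and 276 in Acf1Δ. The 2 lines lay above their WT libraries without overlap, with log2 fold changes of 0.22 in Tip5Δ (SE 0.051, edgeR adjusted p = 0.00271) and 0.28 in Acf1Δ (SE 0.051, edgeR adjusted p = 8.48e-05). In BptfΔ it fell from 280 and 282 to 249 and 246 (log2 fold change -0.18, SE 0.052, edgeR adjusted p = 0.00464). The calls in Tip5Δ and BptfΔ were each lost when any 1 of the 4 libraries of their batch was left out (adjusted p from 0.0147 to 0.0503 in Tip5Δ and from 0.0224 to 0.0381 in BptfΔ). The call in Acf1Δ was lost when only that line and its WT were fitted (adjusted p = 0.0424). Those in Tip5Δ and BptfΔ were also lost with the replicate number as a block (adjusted p = 0.0144 and 0.0150). No change of Fgf4 was called with no batch term, and the log2 fold change in BptfΔ turned to 0.059 (adjusted p = 0.607). The call in BptfΔ was also lost with no filter on low counts (adjusted p = 0.0209), and that in Tip5Δ with scaling by library size only (adjusted p = 0.0134). In the other 3 lines the 95% intervals of the log2 fold change lay between -0.097 and 0.21.

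Etv4 and Etv5 encode closely related transcription factors of the ETS family, whose expression follows FGF and ERK activity in many tissues, and in these lines both rose in WstfΔ and BptfΔ. In Rsf1Δ and Acf1Δ only Etv4 rose, in Tip5Δ only Etv5 fell, and in the Cecr2Δ-labelled libraries Etv5 rose and Etv4 fell. The 2 genes were not tested against each other within a line. Etv4 (chromosome 11, 101769747 to 101785310, gene ID 18612) rose in 4 lines and fell in 1. Its increase was largest in Acf1Δ, from 129 and 142 normalised CPM in WT to 257 and 264 (log2 fold change 0.94, SE 0.079, edgeR adjusted p = 7.68e-10). In batch A it was at 134 and 129 in WT, 202 and 207 in Rsf1Δ and 183 and 188 in WstfΔ. Both lines lay above the WT pair, with log2 fold changes of 0.64 (SE 0.080, edgeR adjusted p = 4.58e-07) and 0.50 (SE 0.081, edgeR adjusted p = 1.32e-05), and the direct difference between them did not pass the test (0.14, 95% interval -0.026 to 0.30, edgeR adjusted p = 0.163). In BptfΔ it rose from 154 and 148 to 189 and 199 (log2 fold change 0.36, edgeR adjusted p = 0.000532). That call was lost without WT replicate 2 (adjusted p = 0.0104) or BptfΔ replicate 2 (adjusted p = 0.0121). In batch D the 3 WT libraries spread from 173 to 229, and the Cecr2Δ-labelled libraries were at 171, 172 and 164, all below them (log2 fold change -0.26, SE 0.064, edgeR adjusted p = 0.00316). This call was lost without WT replicate 2 (log2 fold change -0.16, adjusted p = 0.0380), without WT replicate 3 (adjusted p = 0.0134) and without Cecr2Δ replicate 3 (adjusted p = 0.0217), and when only these libraries and their WT were fitted (adjusted p = 0.0248). The direction turned with no batch term (log2 fold change 0.070, adjusted p = 0.752). In that fit Etv4 also lost its calls in Rsf1Δ (0.35, adjusted p = 0.226), WstfΔ (0.21, adjusted p = 0.370) and BptfΔ (0.27, adjusted p = 0.150), and kept that in Acf1Δ (0.69, adjusted p = 0.00634).

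Etv5 (chromosome 16, 22381313 to 22439570, gene ID 104156) had its largest increase where Etv4 fell. It was at 227, 245 and 236 normalised CPM in the WT libraries of batch D and at 347, 345 and 350 in those labelled Cecr2Δ, a log2 fold change of 0.56 (SE 0.050, edgeR adjusted p = 1.76e-09). It also rose in WstfΔ, from 287 and 270 to 383 and 384 (log2 fold change 0.46, SE 0.062, edgeR adjusted p = 7.21e-07). These 5 libraries lay above all 11 WT libraries, whose highest value was 287, as did those of Rsf1Δ and BptfΔ. In Tip5Δ it fell from 273 and 277 to 220 and 225 (log2 fold change -0.31, SE 0.062, edgeR adjusted p = 0.000718), a call that was lost without WT replicate 2 (adjusted p = 0.0129) or Tip5Δ replicate 1 (adjusted p = 0.0189). In Acf1Δ, where Etv4 rose most, Etv5 was at 281 and 240 against 269 and 283 in WT, and the groups overlapped (log2 fold change -0.08, 95% interval -0.21 to 0.042). Without Acf1Δ replicate 1 its log2 fold change was -0.20 and passed the test (adjusted p = 0.00925), and without Acf1Δ replicate 2 it was 0.024. In Rsf1Δ Etv5 was at 296 and 308 against 287 and 270 in WT (log2 fold change 0.12, 95% interval -0.011 to 0.24, edgeR adjusted p = 0.167). In BptfΔ the log2 fold change was 0.22 (edgeR adjusted p = 0.00407), and it did not pass without WT replicate 2, BptfΔ replicate 1 or BptfΔ replicate 2 (adjusted p from 0.0176 to 0.0517) or with the replicate block (adjusted p = 0.0136) or upper quartile factors (adjusted p = 0.0411). With no batch term the calls of Etv5 in Tip5Δ (adjusted p = 0.0807) and BptfΔ (adjusted p = 0.0408) were lost, and those in WstfΔ and the Cecr2Δ-labelled libraries were kept. The change of Etv5 in the Cecr2Δ-labelled libraries exceeded that in Acf1Δ by 0.64 (edgeR adjusted p = 3.86e-07), while for Etv4 the difference was -1.20 (edgeR adjusted p = 6.86e-10).

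Dusp6, Spry2 and Spry4 are the negative feedback arm of the set: DUSP6 removes the activating phosphates of ERK in the cytoplasm, and the Sprouty proteins dampen signalling between the receptor and RAF. Dusp6 and Spry2 are shown by the 250 bases before their annotated starts in RefSeq on GRCm38.p6 (mm10), because Spry2 fell in BptfΔ where Dusp6 did not pass the test. Each is written 5′ to 3′ on the strand of the gene, and capitals would mark a motif match.

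Dusp6, chr10:99262981-99263230, + strand: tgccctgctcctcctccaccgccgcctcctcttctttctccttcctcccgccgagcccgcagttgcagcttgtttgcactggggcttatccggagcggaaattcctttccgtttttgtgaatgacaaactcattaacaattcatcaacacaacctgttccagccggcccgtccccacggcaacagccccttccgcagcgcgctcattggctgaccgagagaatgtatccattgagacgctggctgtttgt
Spry2, chr14:105896820-105897069, - strand: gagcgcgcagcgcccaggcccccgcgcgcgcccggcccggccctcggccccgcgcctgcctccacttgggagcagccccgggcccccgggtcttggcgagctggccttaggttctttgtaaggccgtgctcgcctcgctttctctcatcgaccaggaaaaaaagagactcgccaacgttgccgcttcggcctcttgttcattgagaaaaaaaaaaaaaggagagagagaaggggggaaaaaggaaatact

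Neither stretch holds any of the 9 motifs searched on both strands, which are an ETS site (CCGGAAGT), an AP-1 site (TGANTCA), a cAMP response element (CRE, TGACGTCA), its half-site (TGACG), an EGR site (GCGNGGGCG), a GC box (GGGCGG), a CTCF core (CC and AG with 3 bases between them, then 2 further bases and GGC), the serum response element and a TATA box (TATAAA). Over the same 250 bases before the start of 32851 promoters these are found in 2.88%, 6.75%, 1.55%, 17.8%, 4.7%, 32.7%, 7.17%, 1.47% and 12.4%, in this order. CRE matches also contain the half-site. Sequences were found for 6 of the 9 genes.

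Dusp6 (chromosome 10, 99263231 to 99267489, gene ID 67603) rose in 2 lines and fell in 1. In batch E it was at 85.1 and 81.2 normalised CPM in WT and at 134 and 118 in Acf1Δ, a log2 fold change of 0.60 (SE 0.063, edgeR adjusted p = 3.34e-08). In WstfΔ it rose from 88.8 and 85.9 to 109 and 111 (log2 fold change 0.33, SE 0.065, edgeR adjusted p = 0.000122). In the same batch Rsf1Δ was at 83.6 and 83.8, just below the WT pair (log2 fold change -0.06, 95% interval -0.19 to 0.069), and the direct difference between these 2 lines was -0.40 (edgeR adjusted p = 1.63e-05). The Cecr2Δ-labelled libraries were at 71.7, 73.6 and 69.1 against 88.8, 93.2 and 98.2 in WT (log2 fold change -0.39, SE 0.051, edgeR adjusted p = 1.72e-06). These 3 libraries lay below all 11 WT libraries, and the libraries of Acf1Δ, WstfΔ and BptfΔ lay above all 11. In Tip5Δ (0.21, edgeR adjusted p = 0.0207) and BptfΔ (0.12, edgeR adjusted p = 0.133) the log2 fold change did not pass the test. With no batch term the call in WstfΔ was lost (0.29, adjusted p = 0.0289) and BptfΔ passed (0.32, adjusted p = 0.00620).

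Spry2 (chromosome 14, 105891947 to 105896819, gene ID 24064) had the largest change among Dusp6, Spry2 and Spry4. In batch C it was at 172 and 171 normalised CPM in WT and at 60.2 and 62.1 in BptfΔ, which is 2.80-fold lower (log2 fold change -1.48, SE 0.063, edgeR adjusted p = 9.86e-17). All other libraries of the series lay at or above 171. The change in BptfΔ was lower than that in each of the 5 other lines, by 1.17 (against Cecr2Δ, edgeR adjusted p = 2.19e-12) to 1.96 (against Acf1Δ, edgeR adjusted p = 4.30e-16) on the log2 scale. In Acf1Δ it rose from 183 and 182 to 268 and 240 (log2 fold change 0.48, SE 0.058, edgeR adjusted p = 3.42e-07). The Cecr2Δ-labelled libraries, at 211, 211 and 199, were below the 253, 259 and 260.0 of their WT (log2 fold change -0.31, SE 0.047, edgeR adjusted p = 1.02e-05). The WT of batch C was also the lowest WT of the series for Spry2, and the fall in BptfΔ was measured against that WT. With no batch term the fall in BptfΔ was -1.82 on the log2 scale and was called, while the calls in Acf1Δ (0.23, adjusted p = 0.317) and in the Cecr2Δ-labelled libraries (-0.065, adjusted p = 0.745) were lost.

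Spry4, on chromosome 18 (gene ID 24066), fell in BptfΔ as Spry2 did, but less. It was at 124 and 129 normalised CPM in WT and at 83.2 and 86.7 in BptfΔ (log2 fold change -0.58, SE 0.073, edgeR adjusted p = 1.95e-07). These 2 values were the lowest of the series. It rose from 142 and 132 to 179 and 188 in Rsf1Δ (log2 fold change 0.43, SE 0.069, edgeR adjusted p = 2.18e-05) and to 171 and 180 in WstfΔ (log2 fold change 0.36, SE 0.070, edgeR adjusted p = 0.000128). In Acf1Δ it rose from 117 and 120.5 to 208 and 183 (log2 fold change 0.72, SE 0.069, edgeR adjusted p = 6.79e-09). The Cecr2Δ-labelled libraries, between 158 and 167, overlapped the 161 to 188 of their WT (log2 fold change -0.08, 95% interval -0.20 to 0.032). The change in BptfΔ was lower than that in each other line, by 0.40 (against Tip5Δ, edgeR adjusted p = 0.00213) to 1.30 (against Acf1Δ, edgeR adjusted p = 3.47e-11). The 3 rises of Spry4 lost their calls with no batch term, at 0.36 in Rsf1Δ (adjusted p = 0.123), 0.30 in WstfΔ (adjusted p = 0.113) and 0.46 in Acf1Δ (adjusted p = 0.0322), and the fall in BptfΔ kept it (-0.75).

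In Acf1Δ the 3 feedback genes Dusp6, Spry2 and Spry4 all rose, whereas in BptfΔ both Sprouty genes fell and Dusp6 did not pass the test. Of the 3, only Dusp6 was called in Acf1Δ with no batch term. The direct differences between the changes in Acf1Δ and BptfΔ were 0.48 for Dusp6 (edgeR adjusted p = 6.97e-05), 1.96 for Spry2 and 1.30 for Spry4.

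Egr1, Fos and Ier3 are early response genes, transcribed within minutes of a stimulus into short-lived mRNAs. EGR1 is a zinc finger transcription factor, FOS a subunit of AP-1, and Ier3 a small protein linked to the response to stress and growth factors. The Fos promoter is printed because it held more of the motifs than the other sequences found, again as the 250 bases before the start on the strand of the gene, with the matches in capitals.

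Fos, chr12:85473640-85473889, + strand: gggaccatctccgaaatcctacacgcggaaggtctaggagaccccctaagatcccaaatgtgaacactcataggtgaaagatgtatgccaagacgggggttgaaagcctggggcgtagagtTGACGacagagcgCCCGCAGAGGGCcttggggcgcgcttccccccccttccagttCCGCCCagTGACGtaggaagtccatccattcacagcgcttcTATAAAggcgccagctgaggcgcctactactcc

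In the order of the sequence, the capitals mark a CRE half-site that starts 129 bases before the start, a CTCF core at 116, a GC box on the opposite strand at 74, a second CRE half-site at 66 and a TATA box at 33. Of the 6 genes with a sequence, Fos was the only one with a CRE half-site, a CTCF core or a TATA box by these letters, and Fgf4, Etv5 and Ier3 also held a GC box. A match describes the letters only.

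Egr1 (chromosome 18, gene ID 13653) had the largest change of the set, in BptfΔ. It was at 6.88 and 5.95 normalised CPM in the 2 WT samples of batch C (131 and 102 counts) and at 0.778 and 0.636 in BptfΔ (13 and 11 counts), 9.06-fold lower (log2 fold change -3.18, SE 0.21, edgeR adjusted p = 1.27e-12). The WT libraries of batch C were themselves the lowest WT libraries for Egr1, so BptfΔ lay below every other library of the series. In batch A Egr1 was at 27.3 and 25.4 in WT and at 8.02 and 7.68 in WstfΔ (log2 fold change -1.75, SE 0.11, edgeR adjusted p = 5.63e-13). The WstfΔ libraries lay far below their own WT and above the WT of batch C. With no batch term, that is against all 11 WT libraries, the log2 fold change in WstfΔ was -1.41 and missed the threshold (edgeR adjusted p = 0.0251), and that in BptfΔ was -4.88 (edgeR adjusted p = 1.36e-06). Rsf1Δ, in the same batch as WstfΔ, was at 29.0 and 26.7 (log2 fold change 0.08, 95% interval -0.097 to 0.26). The direct difference between Rsf1Δ and WstfΔ, which does not involve WT libraries, was 1.83 (SE 0.11, edgeR adjusted p = 3.95e-13). Both falls were DEGs, that is, past a 2-fold change and an adjusted p under 0.01. Of all genes, 8.59% were DEGs that fell in BptfΔ and 6.57% in WstfΔ. The fall in BptfΔ exceeded that in WstfΔ by 1.43 (95% interval 0.88 to 1.98, edgeR adjusted p = 0.000150).

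Smaller decreases of Egr1 were found in 2 further lines. The Cecr2Δ-labelled libraries were at 19.5, 20.6 and 18.8 against 23.9, 28.3 and 26.0 in WT (log2 fold change -0.41, SE 0.069, edgeR adjusted p = 5.59e-05). Acf1Δ was at 18.4 and 17.1 against 22.3 and 22.1 (log2 fold change -0.32, SE 0.089, edgeR adjusted p = 0.00432), a call that was lost without WT replicate 1 (adjusted p = 0.0243), WT replicate 2 (adjusted p = 0.0177) or Acf1Δ replicate 2 (adjusted p = 0.0510) and when only Acf1Δ and its WT were fitted (adjusted p = 0.106) or no filter on low counts was used (adjusted p = 0.0116). Both calls were lost with no batch term, at -0.091 in the Cecr2Δ-labelled libraries (adjusted p = 0.872) and -0.24 in Acf1Δ (adjusted p = 0.746). In Tip5Δ, at 19.5 and 21.1, Egr1 overlapped its WT libraries at 20.4 and 20.8 (log2 fold change -0.02, 95% interval -0.20 to 0.17).

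Fos (chromosome 12, 85473890 to 85477274, gene ID 14281) was low in all 24 libraries, between 2.41 and 5.60 normalised CPM. In batch A it was at 4.31 and 5.60 in WT, at 2.79 and 3.09 in Rsf1Δ and at 2.89 and 2.41 in WstfΔ. Both lines lay below the WT pair, with log2 fold changes of -0.75 (SE 0.17, edgeR adjusted p = 0.00150) and -0.90 (SE 0.20, edgeR adjusted p = 0.000512). These 2 changes share their WT libraries, which were the highest WT mean for Fos, and both calls were lost without WT replicate 2 (adjusted p = 0.0589 and 0.0162). They were also lost without Rsf1Δ replicate 1 (adjusted p = 0.0255) and without WstfΔ replicate 2 (adjusted p = 0.0177), respectively, and with no batch term (-0.32, adjusted p = 0.503, and -0.47, adjusted p = 0.20). In BptfΔ, where Egr1 fell most, Fos was at 3.65 and 4.04 against 3.15 and 2.63, above its WT libraries (log2 fold change 0.41, 95% interval 0.0013 to 0.82, edgeR adjusted p = 0.0858).

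Ier3 (chromosome 17, 35821713 to 35822911, gene ID 15937) fell in 3 lines. It was at 8.78 and 8.23 normalised CPM in WT and at 3.87 and 5.05 in Rsf1Δ (log2 fold change -0.93, SE 0.18, edgeR adjusted p = 0.000160), a call that was lost without Rsf1Δ replicate 1 (adjusted p = 0.0104). WstfΔ, at 7.08 and 7.24, was lower than the same WT by less than the test could call (log2 fold change -0.25, 95% interval -0.62 to 0.12). In Tip5Δ Ier3 fell from 7.43 and 7.98 to 4.51 and 4.78 (log2 fold change -0.73, SE 0.18, edgeR adjusted p = 0.00432). Leaving out any 1 of the 4 libraries of batch B lost this call (adjusted p from 0.0180 to 0.0553). In BptfΔ it fell from 5.88 and 7.06 to 2.93 and 4.33 (log2 fold change -0.82, SE 0.21, edgeR adjusted p = 0.00155), and the call was lost without WT replicate 2 (adjusted p = 0.0281) or BptfΔ replicate 1 (adjusted p = 0.0557). With no batch term the calls in Rsf1Δ (-0.63, adjusted p = 0.148) and Tip5Δ (-0.57, adjusted p = 0.138) were lost, and that in BptfΔ was kept (-0.92). The groups did not overlap in any of these 3 lines, and the values rest on 49 to 237 counts per library for Ier3 and 33 to 130 for Fos.

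The 9 genes stand in a pathway whose other genes were described by lists. Of 16 FGF ligands, receptors and partners, 1 rose and 5 fell in Rsf1Δ, 5 and 4 in WstfΔ, 2 and 5 in Tip5Δ, 5 and 4 in the Cecr2Δ-labelled libraries, 4 and 5 in Acf1Δ and 2 and 7 in BptfΔ. Of all genes, 7.45% rose and 13.1% fell in Rsf1Δ, 16.4% and 18.3% in WstfΔ, 2.84% and 6.23% in Tip5Δ, 9.52% and 8.83% in the Cecr2Δ-labelled libraries, 15.1% and 16.7% in Acf1Δ and 21.4% and 20.2% in BptfΔ, and the counts of each list below stand beside these shares. The receptor Fgfr2, whose epithelial and mesenchymal forms bind different FGFs, was at 48.9 ± 0.86 normalised CPM in the WT of batch A (SD, n = 2), at 21.6 ± 1.08 in Rsf1Δ (SD, n = 2) and at 15.5 ± 0.37 in WstfΔ (SD, n = 2). Both were DEGs (log2 fold changes -1.18 and -1.66, edgeR adjusted p = 2.38e-11 and 1.08e-13). The largest fall of Fgfr2 was in BptfΔ, from 38.3 ± 0.96 to 10.1 ± 0.46 (SD, n = 2 each, edgeR adjusted p = 1.02e-14), a log2 fold change of -1.92. Smaller falls were found in Acf1Δ (-0.79) and in the Cecr2Δ-labelled libraries (-0.39), and in Tip5Δ the log2 fold change was -0.21 (edgeR adjusted p = 0.113). Flrt3, a transmembrane protein that interacts with FGF receptors, fell in every line but Acf1Δ, with log2 fold changes from -0.97 in the Cecr2Δ-labelled libraries to -2.22 in BptfΔ, and rose in Acf1Δ (0.38, edgeR adjusted p = 0.000857). The ligand Fgf10 fell from 3.38 ± 0.17 to 0.354 ± 0.092 in BptfΔ (SD, n = 2 each), with a log2 fold change of -3.24 (edgeR adjusted p = 1.56e-10) as it did in Tip5Δ (-1.60) and the Cecr2Δ-labelled libraries (-0.54), and rose in Acf1Δ (log2 fold change 1.18, edgeR adjusted p = 2.84e-08). Fgf1 rose from 0.997 ± 0.11 to 7.30 ± 0.81 in WstfΔ (SD, n = 2 each), with a log2 fold change of 2.87 (edgeR adjusted p = 1.29e-11). It also rose in BptfΔ (2.16) and the Cecr2Δ-labelled libraries (1.19), and it fell in Acf1Δ, from 5.04 ± 0.62 to 2.31 ± 0.37 (SD, n = 2 each, edgeR adjusted p = 9.52e-06), a log2 fold change of -1.12.

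Of the 21 genes of the cascade from the receptor adaptors to ERK and its kinase targets, 2 rose and 3 fell in Rsf1Δ, 5 and 2 in WstfΔ, 3 and 0 in Tip5Δ, 1 and 3 in the Cecr2Δ-labelled libraries, 4 and 6 in Acf1Δ and 5 and 3 in BptfΔ. The shares of all genes that rose and fell in each line are those given above, and no result about the cascade is read from these counts. Only Frs3 in WstfΔ was a DEG. The list medians were between -0.07 and 0.07 on the log2 scale, where those of all genes were between -0.03 and 0.01. Frs3, an adaptor of FGF receptors, rose in WstfΔ from 4.41 ± 0.76 to 9.81 ± 0.53 normalised CPM (SD, n = 2 each), with a log2 fold change of 1.15 (edgeR adjusted p = 1.74e-06), and in Rsf1Δ (0.72) and BptfΔ (0.71). Map2k2, which encodes the ERK kinase MEK2, rose in Acf1Δ from 56.4 ± 4.01 to 94.1 ± 0.042 (SD, n = 2 each), with a log2 fold change of 0.74 (edgeR adjusted p = 1.74e-09). In the Cecr2Δ-labelled libraries it fell by 0.28 on the log2 scale (edgeR adjusted p = 0.000138).

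Among 19 other feedback inhibitors, 1 rose and 8 fell in BptfΔ (21.4% and 20.2% of all genes), 4 and 7 in WstfΔ (16.4% and 18.3%), 1 and 6 in Rsf1Δ (7.45% and 13.1%), 2 and 2 in Tip5Δ, 2 and 1 in the Cecr2Δ-labelled libraries and 1 and 3 in Acf1Δ. Dusp4, a nuclear phosphatase of ERK, fell in all 6 lines, where its cytoplasmic relative Dusp6 fell in 1. Its level was 28.4 ± 1.04 normalised CPM in the WT of batch A, 9.51 ± 0.21 in Rsf1Δ and 7.45 ± 0.016 in WstfΔ (SD, n = 2 each), with log2 fold changes of -1.58 and -1.93. In BptfΔ it fell from 17.7 ± 0.40 to 6.44 ± 0.20 (SD, n = 2 each), with a log2 fold change of -1.46 (edgeR adjusted p = 1.90e-10), in the Cecr2Δ-labelled libraries by 1.17, in Tip5Δ by 0.59 and in Acf1Δ by 0.33 on the log2 scale (edgeR adjusted p = 0.00983 in Acf1Δ). Dusp5, another nuclear ERK phosphatase, fell in Rsf1Δ (-0.98, edgeR adjusted p = 1.95e-06), WstfΔ (-1.01, edgeR adjusted p = 3.02e-06) and BptfΔ (-0.57, edgeR adjusted p = 0.00151).

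**Figure D4:**
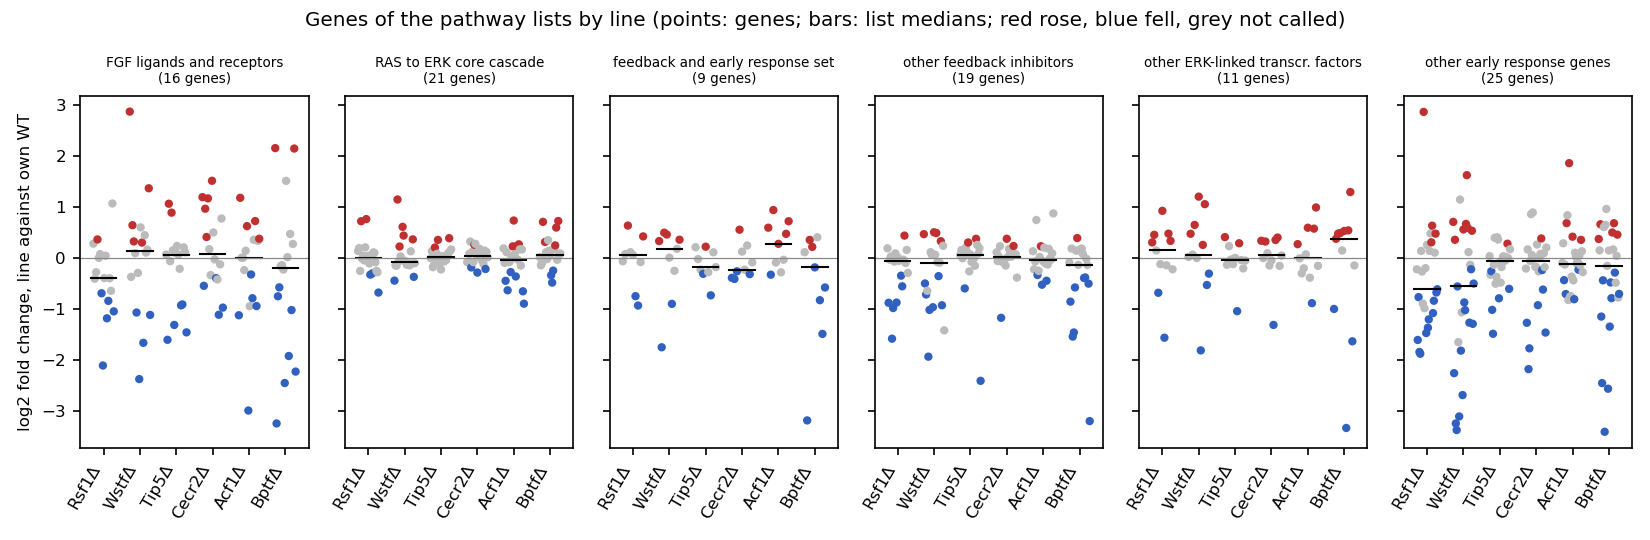
Log2 fold changes of the genes of each pathway list in the 6 lines, with 1 point per gene, red where it rose and blue where it fell at an adjusted p under 0.01 and grey otherwise, and a bar for the median of the list. The early response genes have the lowest medians, -0.61 in Rsf1Δ and -0.55 in WstfΔ.

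Of 11 other transcription factors and targets tied to ERK, 6 rose and 3 fell in BptfΔ (21.4% and 20.2% of all genes), with a median log2 fold change of 0.38 against 0.01 for all genes. In Rsf1Δ 5 rose and 2 fell, in WstfΔ 5 and 3, in Tip5Δ 2 and 1, and in Acf1Δ and the Cecr2Δ-labelled libraries 4 and 1 each, with medians between -0.04 and 0.15. Ets1 and Myc fell in BptfΔ, against the sign of the list's median there. Ets1, an ETS factor, fell in every line but Acf1Δ, with log2 fold changes of -1.56 in Rsf1Δ, -1.81 in WstfΔ, -1.04 in Tip5Δ, -1.31 in the Cecr2Δ-labelled libraries and -3.33 in BptfΔ, all of them DEGs. Its level in BptfΔ was 1.06 ± 0.14 against 10.7 ± 0.061 normalised CPM (SD, n = 2 each). Erf, an ETS repressor that ERK removes from the nucleus, rose in Rsf1Δ (0.93), WstfΔ (1.21), Acf1Δ (0.60) and BptfΔ (0.53). Myc rose in Rsf1Δ (0.34) and fell in WstfΔ (-0.53). It also rose in Acf1Δ, from 88.1 ± 3.99 to 175 ± 8.67 (SD, n = 2 each), with a log2 fold change of 0.99 (edgeR adjusted p = 1.15e-11), and fell in BptfΔ, from 84.6 ± 1.25 to 27.3 ± 0.64 (SD, n = 2 each), with a log2 fold change of -1.63 (edgeR adjusted p = 9.30e-16).

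Of the 25 other early response genes, 4 rose and 11 fell in Rsf1Δ (7.45% and 13.1% of all genes), 7 and 13 in WstfΔ (16.4% and 18.3%), 1 and 5 in Tip5Δ (2.84% and 6.23%), 1 and 7 in the Cecr2Δ-labelled libraries (9.52% and 8.83%), 5 and 10 in BptfΔ (21.4% and 20.2%) and 4 and 4 in Acf1Δ (15.1% and 16.7%). All genes also fell more often than they rose in Rsf1Δ, WstfΔ, Tip5Δ and Acf1Δ. Their median log2 fold changes were -0.61 in Rsf1Δ and -0.55 in WstfΔ, and between -0.15 and -0.05 in the other 4, where those of all genes were between -0.03 and 0.01 in the 6 lines. Among those that passed the test with a mean of at least 1 normalised CPM, Ccn2 and Ccn1, secreted matrix proteins that also respond to YAP and serum, had the largest changes in 4 lines. Ccn2 was at 298 ± 5.99 normalised CPM in the WT of batch A, at 81.2 ± 3.72 in Rsf1Δ and at 28.8 ± 2.98 in WstfΔ (SD, n = 2 each), with log2 fold changes of -1.87 and -3.37. Ccn1 was at 213 ± 1.51 in that WT, at 59.6 ± 1.10 in Rsf1Δ and at 22.6 ± 0.15 in WstfΔ (SD, n = 2 each). In BptfΔ the AP-1 subunit Fosl2 fell from 6.61 ± 0.065 to 1.12 ± 0.19 (SD, n = 2 each), with a log2 fold change of -2.56 (edgeR adjusted p = 4.51e-11), while Fos had a log2 fold change of 0.41 that did not pass the test. Fosl2 fell in WstfΔ (-2.68), Rsf1Δ (-1.47) and Tip5Δ (-0.79) as well. Jun, the partner of FOS in AP-1, fell in every line but Tip5Δ, and in Acf1Δ from 22.0 ± 1.30 to 12.6 ± 1.91 (SD, n = 2 each), with a log2 fold change of -0.80 (edgeR adjusted p = 3.15e-06).

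Markers of another cell type moved with several of these results. All 9 primitive endoderm markers fell in 5 of the lines. Their summed level was 3160 to 3429 normalised CPM in the WT of batch A, 982 to 995 in Rsf1Δ and 750 to 759 in WstfΔ, 3276 to 3282 against 607 to 637 in Tip5Δ, 1613 to 1641 against 200 to 204 in BptfΔ, and 811 to 841 against 178 to 190 in the Cecr2Δ-labelled libraries. In Acf1Δ the sum was 1873 to 2357 against 1874 to 2156 in WT, with 3 markers rising and 1 falling. The summed trophectoderm markers were also lower in every line, most in batch A, at 379 to 385 in WT, 67.5 to 68.6 in Rsf1Δ and 47.0 to 48.9 in WstfΔ. The 7 fibroblast markers summed to between 2.54 and 32.2 over all libraries, and 3 of the 4 that could be tested fell in 5 lines, while 0 of them passed the test in the Cecr2Δ-labelled libraries. Streak and mesoderm markers summed to between 4.19 and 9.32. Of 4 neural markers tested, at most 2 rose and at most 2 fell in a line. In BptfΔ 1 rose and 2 fell (21.4% and 20.2% of all genes), with a median log2 fold change of -0.37. Sox1 went there from 3.56 ± 0.16 to 17.0 ± 0.97, Pax6 from 5.55 ± 0.25 to 1.94 ± 0.034 and Nes from 42.9 ± 2.42 to 23.9 ± 1.06 (SD, n = 2 each). Of 6 heat shock genes, 4 rose and 0 fell in BptfΔ, with a median log2 fold change of 0.52, and their sum was 1584 to 1618 there and 1549 to 1580 in WT. Among the pluripotency markers 8 of 9 rose and 0 fell in Rsf1Δ and in WstfΔ, with sums of 3848 to 4000.2 in WT, 5100.2 to 5116 in Rsf1Δ and 5327 to 5395 in WstfΔ. In the Cecr2Δ-labelled libraries 6 rose and 0 fell, in BptfΔ 5 rose and 2 fell, in Acf1Δ 4 rose and 2 fell, and in Tip5Δ 1 rose and 0 fell. In these bulk samples, fewer cells of a type and less RNA per cell cannot be told apart, and the part of these marker changes in the results for the 9 genes was not tested. The RNAs without a poly(A) tail that set batch C apart were also higher in BptfΔ (4720 to 5515) than in its WT (3932 to 4084), and their summed level in Acf1Δ (3.25 to 5.72) was above that in its WT (0.221 to 0.259). Their part in the results for BptfΔ and Acf1Δ was not tested.

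The pattern of each gene over the 11 group means (5 WT groups and 6 lines) was compared with that of 9835 other genes by the Pearson correlation of log2 normalised CPM, as a description. Groups of 1 batch share their handling and sequencing, so these 11 points are not independent. Egr1 was most like Ap1s3 (r = 0.986) and Snhg11 (r = 0.975), Spry2 most like Plekhd1 (r = 0.969) and Chchd6 (r = 0.962), and Spry4 most like Ccdc142 (r = 0.967) and Eno1 (r = 0.955). For Etv4 the nearest gene was Znrd1 (r = 0.963), for Fos it was Irs2 (r = 0.945) and for Ier3 it was Lipa (r = 0.941). Fgf4 was most like Zfp647 (r = 0.906), followed by Spred1 (r = 0.895), a feedback inhibitor of the same pathway. Dusp6 was most like Ntmt1 (r = 0.899), and Etv5, with Rpap1 (r = 0.851), had the lowest best match of the 9. Among the 9 genes themselves the closest pairs were Spry2 and Egr1 (r = 0.876), Spry2 and Spry4 (r = 0.833) and Spry4 and Egr1 (r = 0.675). These 3 genes and Ier3 had their lowest group mean in BptfΔ. For Spry2 and Egr1 the WT of batch C came next, and levels of that batch may not be comparable with those of the others. WstfΔ had the highest mean of Spry2 (264) but the lowest of Egr1 outside batch C (7.85). The correlations were not computed without batch C.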

How the data were processed

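RNA-seq libraries of 11 WT and 13 deletion line mESC samples were prepared, per the labels, from poly(A) RNA with a stranded kit (in doubt for batch C, where RNAs without a poly(A) tail were abundant), while the study's methods name a TruSeq RNA kit v2. The authors aligned reads to mm10 with QuasR and its spliced aligner (bcl2fastq 2.17 and HISAT2 are named in the submitters' processing notes) and deposited raw counts per gene of the UCSC knownGene annotation, with a gene width in bases. Strand and multi-mapping settings of the counting are not given in the sources used here. None of the 9 genes overlaps another gene of the table.

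From the deposited counts, R 4.3.3 with edgeR 4.0.16 gave TMM-normalised CPM and quasi-likelihood tests (legacy form) from 1 model of all 24 libraries in which batch and genotype were the terms. filterByExpr by genotype left 15682 of 24594 genes, the set used for the Benjamini-Hochberg adjustment of p-values. Genes rose or fell at an adjusted p under 0.01, and DEGs also had an absolute log2 fold change over 1. Each standard error (SE) is the size of the log2 fold change over the square root of its F statistic. Differences between lines were contrasts of the same fit. Total counts had a median of 25.0 M (mega) per library. Replicate pairs differed by more than sampling noise (chi-square per gene from 1.38 to 20.4 over 15 pairs), and none was counted as 1 sample. In data simulated for BptfΔ over 15682 genes, 73 of 100 genes changed by a log2 fold change of 1 and 86 of 100 changed by 2 were called, with 2 false calls among 15482 others. For WstfΔ these were 76 and 89, with 1 false call.

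Symbols, coordinates and promoter sequences came from RefSeq on GRCm38.p6 and matched 24570 of the 24594 IDs. The 9 genes and the lists were chosen with earlier results of these data known. Other genes were named by a rule: per list and line at most the 2 called genes with the largest absolute log2 fold change and a mean of at least 1 CPM, and per gene the 2 with the highest r among genes with a mean log2 CPM of at least 3. The alternatives were DESeq2 1.42.0, other scaling factors, filters and thresholds, the newer fit, no batch term, a replicate block, each line with its own WT only, and leaving out each of the 24 libraries.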

Additional observations from a re-analysis of the deposited data

How the results depend on the processing

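Counts of called genes in Rsf1Δ, WstfΔ, Tip5Δ, Cecr2Δ, Acf1Δ and BptfΔ (4, 6, 3, 5, 6 and 7 of 9) depended mostly on the threshold and the batch term. With a 2-fold change also required they were 0, 1, 0, 0, 0 and 2, and 22 of 135 differences between lines in place of 75, by construction. With no batch term, each line against all 11 WT libraries, they were 0, 1, 0, 2, 2 and 5, with 26 differences between lines, and 2 called values turned: Etv4 in Cecr2Δ to 0.070 (adjusted p = 0.752) and Fgf4 in BptfΔ to 0.059 (adjusted p = 0.607), where the WT batches differ for all 9 genes. Of the values called in neither fit, 6 also changed sign there: Spry2 in Rsf1Δ to 0.028, Ier3 in WstfΔ, Cecr2Δ and Acf1Δ to 0.056, -0.22 and 0.13, Fos in Tip5Δ to 0.052 and Spry4 in Cecr2Δ to 0.196. Fgf4 in WstfΔ was -0.0011 with upper quartile factors, also uncalled. Fitted with its own WT alone, Tip5Δ had 6 genes called, and the cause was not tested. Leaving out each library in turn gave 2 to 4 in Rsf1Δ, 5 to 7 in WstfΔ, 0 to 4 in Tip5Δ, 4 to 5 in Cecr2Δ, 5 to 7 in Acf1Δ, 3 to 7 in BptfΔ, 9 to 9 among WT batches and 68 to 80 between lines. Tip5Δ had 0 without WT replicate 2 or Tip5Δ replicate 1, and 1 without WT replicate 1 or Tip5Δ replicate 2. BptfΔ had 3 without WT replicate 2 and 4 without either BptfΔ replicate, and Rsf1Δ had 2 without Rsf1Δ replicate 1. A lone library left in a group was assumed to vary like the others. Over the single genes, those fits kept the direction and the side of the threshold 1251 times, lost the call 32 times and gained it 6 times. The sign changed 7 times, for no called value, in 4 values near 0: Fgf4 in WstfΔ (-0.022 to 0.043), Egr1 in Tip5Δ (-0.078 to 0.036), Etv5 in Acf1Δ (-0.20 to 0.024) and Ier3 in Acf1Δ (-0.18 to 0.13). DESeq2 called 4, 7, 3, 5, 6 and 7 and 77 differences. The falls of Egr1, Spry2 and Spry4 in BptfΔ were called under all 34 alternatives other than the 2-fold threshold.

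Same-numbered libraries of a line and its WT did not deviate together (r from -0.34 to 0.19, positive only in Rsf1Δ and WstfΔ), so the numbers do not pair them. With the replicate block the counts were 4, 6, 2, 5, 6 and 5, with 9 among WT batches and 71 between lines. An alternative without batch C was chosen after seeing the data and changed no count of a line by over 1.5 times. Differences between lines were not recomputed there or with own WT only. At 3 counts per library the floor of 0.0837 to 0.22 CPM lies below all values of the 9 genes, and Fos, Ier3 and Egr1 in BptfΔ are the least precise.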
